A study of Mus musculus with 12 samples.

Results

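The genes described here are 35 genes of B cells, plasma cells and the lymphoid follicle, measured in pancreatic ductal adenocarcinomas of mice. They were chosen by gene symbol, with immunoglobulin genes and chemokines left out, and all 35 symbols were found among the 52636 genes of the RNA-seq tables. Each table held the expected counts of 1 tumour, and 12 tumours were measured, 3 mice in each of 4 groups. The groups were gemcitabine-treated Cdh11+/- tumours (treated heterozygotes), gemcitabine-treated Cdh11+/+ tumours (treated wild types), untreated Cdh11+/- tumours (untreated heterozygotes) and untreated Cdh11+/+ tumours (untreated wild types). All mice carried the KPC alleles, so the Cdh11+/+ controls are tumour-bearing KPC mice as well, on a mixed C57BL/6 and 129 background. The labels state neither age nor dose nor schedule. Gemcitabine is a nucleoside analogue used against pancreatic cancer, Cdh11 encodes cadherin 11, an adhesion protein of mesenchymal cells, and the study asked how losing 1 copy of it bears on immune cells, matrix and the response to the drug. Values below are CPM (counts scaled to library size) with mice in the order 1, 2 and 3, unless a length-scaled value (TPM) is named.

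Totals ran from 39388328 to 56559413 counts per library, and 24065 genes passed the filter on low counts, among them 34 of the 35 genes. Cdh11 itself had 108, 142 and 72.0 CPM in treated heterozygotes, 142, 62.2 and 123 in treated wild types, 148, 115 and 73.7 in untreated heterozygotes and 225, 283 and 165 in untreated wild types. The heterozygotes lay below every wild type only in untreated tumours; in treated tumours the genotypes overlapped, so the Cdh11 level did not separate the treated groups by label. Summed duct epithelium markers were between 3190 and 9066 CPM in all 12 tumours. Xist, the transcript that silences 1 X chromosome in females, had 0.585, 1.12 and 1.00 CPM in treated heterozygotes, 2533, 1322 and 3569 in treated wild types, 2017, 1.64 and 1.37 in untreated heterozygotes and 2816, 0.807 and 2655 in untreated wild types. All 3 treated heterozygotes were thus low in Xist and all 3 treated wild types high, so the sex marker and the genotype cannot be told apart within the treated tumours. Untreated groups held both kinds, so the groups set against each other for gemcitabine and for the interaction also differed in their mix of Xist levels.

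A B cell recognises antigen with a membrane immunoglobulin whose signal passes through the Cd79a and Cd79b chains to kinases such as Syk and Btk, and co-receptors such as Cd22 and Cr2 lower or raise that signal. Ebf1 and Pax5 set up the B cell programme, and Irf4 and Prdm1 turn an activated B cell into a plasma cell, which secretes antibody. In inflamed tissue, including pancreatic tumours, B cells can gather with T cells in follicle-like aggregates that lymphotoxin and high endothelial venules help to form.

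Promoter sequence was looked at for what these genes share beyond their names. The RefSeq table for GRCm38.p6 matched 31 of the 35 genes (not Ms4a1, Cd79b, Blk and Mzb1). These 31 genes had 37 promoters, as some had more than 1. The shares of all promoters below are per promoter, and each motif was found in only 1 promoter of a gene. In the 250 bases before each start, both strands were searched for 5 motifs. The octamer ATTTGCAT, bound by Oct factors with the co-activator Pou2af1, was present for Blnk and Vpreb3 and in 1.6% of 32851 promoters of mouse genes. The letters AGGAAGT of a PU.1/ETS site were present for 7 of the genes and in 7.69% of all promoters, and those 7 were Blnk, Cd37, Cd72, Cd79a, Fcrl1, Tnfrsf13b and Vpreb3. The E-box CAGGTG was present for 14 of the 31 genes, in 14 of their 37 promoters, and in 17.2% of all promoters. CCCNNGGG, the letters of an EBF site, was found for 4 (Bank1, Cd22, Sdc1 and Spib) and in 11.8% of all promoters, and GGGNNTTTC, the first letters of an NF-kB site, only for Ltb among these genes and in 3.72% of all promoters. The motifs do not overlap in the sequences shown, and a match is a run of letters and not a measured site.

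The promoters below are shown because they hold both octamer matches, the PU.1/ETS and E-box letters of the gene for the receptor chain Cd79a, and the NF-kB letters of the lymphotoxin gene Ltb. Each is given 5′ to 3′ on the gene's strand, from GRCm38.p6, with motif matches on either strand in capitals. The coordinates are chr7:24897247-24897496 (plus strand), chr19:40994222-40994471 (minus strand), chr10:75948050-75948299 (plus strand) and chr17:35194257-35194506 (plus strand).
Cd79a: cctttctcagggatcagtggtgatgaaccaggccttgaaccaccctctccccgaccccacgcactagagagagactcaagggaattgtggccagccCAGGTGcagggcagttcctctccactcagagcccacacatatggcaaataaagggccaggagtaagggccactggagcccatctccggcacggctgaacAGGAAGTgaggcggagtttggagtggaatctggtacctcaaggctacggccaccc
Blnk: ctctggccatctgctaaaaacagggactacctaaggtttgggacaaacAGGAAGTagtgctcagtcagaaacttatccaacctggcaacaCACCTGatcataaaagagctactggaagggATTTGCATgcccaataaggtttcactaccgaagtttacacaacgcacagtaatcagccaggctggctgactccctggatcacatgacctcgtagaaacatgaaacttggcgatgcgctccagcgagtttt
Vpreb3: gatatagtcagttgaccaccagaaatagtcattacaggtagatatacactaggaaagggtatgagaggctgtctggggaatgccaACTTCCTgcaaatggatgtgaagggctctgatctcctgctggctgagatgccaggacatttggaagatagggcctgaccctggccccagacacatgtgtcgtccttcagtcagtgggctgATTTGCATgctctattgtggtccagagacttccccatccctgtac
Ltb: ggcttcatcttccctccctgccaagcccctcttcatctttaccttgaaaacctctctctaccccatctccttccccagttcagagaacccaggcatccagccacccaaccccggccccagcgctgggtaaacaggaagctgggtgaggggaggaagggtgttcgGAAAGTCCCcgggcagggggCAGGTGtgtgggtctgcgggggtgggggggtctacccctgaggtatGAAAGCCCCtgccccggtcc
In order along each strand, the capitals in Cd79a mark the E-box and then the PU.1/ETS letters. In Blnk they mark the PU.1/ETS letters, the E-box on the other strand and then the octamer. In Vpreb3 they mark the PU.1/ETS letters on the other strand and then the octamer. In Ltb they mark the NF-kB letters on the other strand at both ends of an E-box. Blnk and Vpreb3 were both high in untreated heterozygote 1, described below, where Vpreb3 had 32 counts and the octamer co-activator Pou2af1 had 0.900 CPM. A part of the octamer in those levels was not tested.

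The strongest signal of B cell genes came from 2 of the 12 tumours, treated heterozygotes 2 and 3. They were picked from the levels of these same genes, so the shares given here describe the pattern and do not test it. In 18 of the 34 tested genes these were the 2 highest libraries, a pattern that 2.356% of all tested genes showed. Treated heterozygote 1 was not like those 2 tumours: it ranked 6 of 12 for Cd79a, 10 for Ms4a1, 11 for Pax5 and 12 for Spib. Untreated heterozygote 3 and untreated wild type 2, picked in the same way, took the next places. Together with treated heterozygotes 2 and 3 they formed the 4 highest libraries in 10 of the 34 genes, against 1.641% of all genes. All 4 were low in Xist, as were treated heterozygote 1 and untreated heterozygote 2, whose receptor sums below were 9.67 and 4.88 CPM. Whether sex had a part in this pattern was not tested. Summed over the 10 receptor and co-receptor genes, the level was 9.67, 66.1 and 39.2 CPM in treated heterozygotes, 8.92, 6.69 and 6.45 in treated wild types, 8.68, 4.88 and 17.6 in untreated heterozygotes and 6.75, 16.8 and 6.41 in untreated wild types. In bulk tumour RNA, fewer cells of a type and less RNA per cell cannot be told apart.

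**Figure D1:**
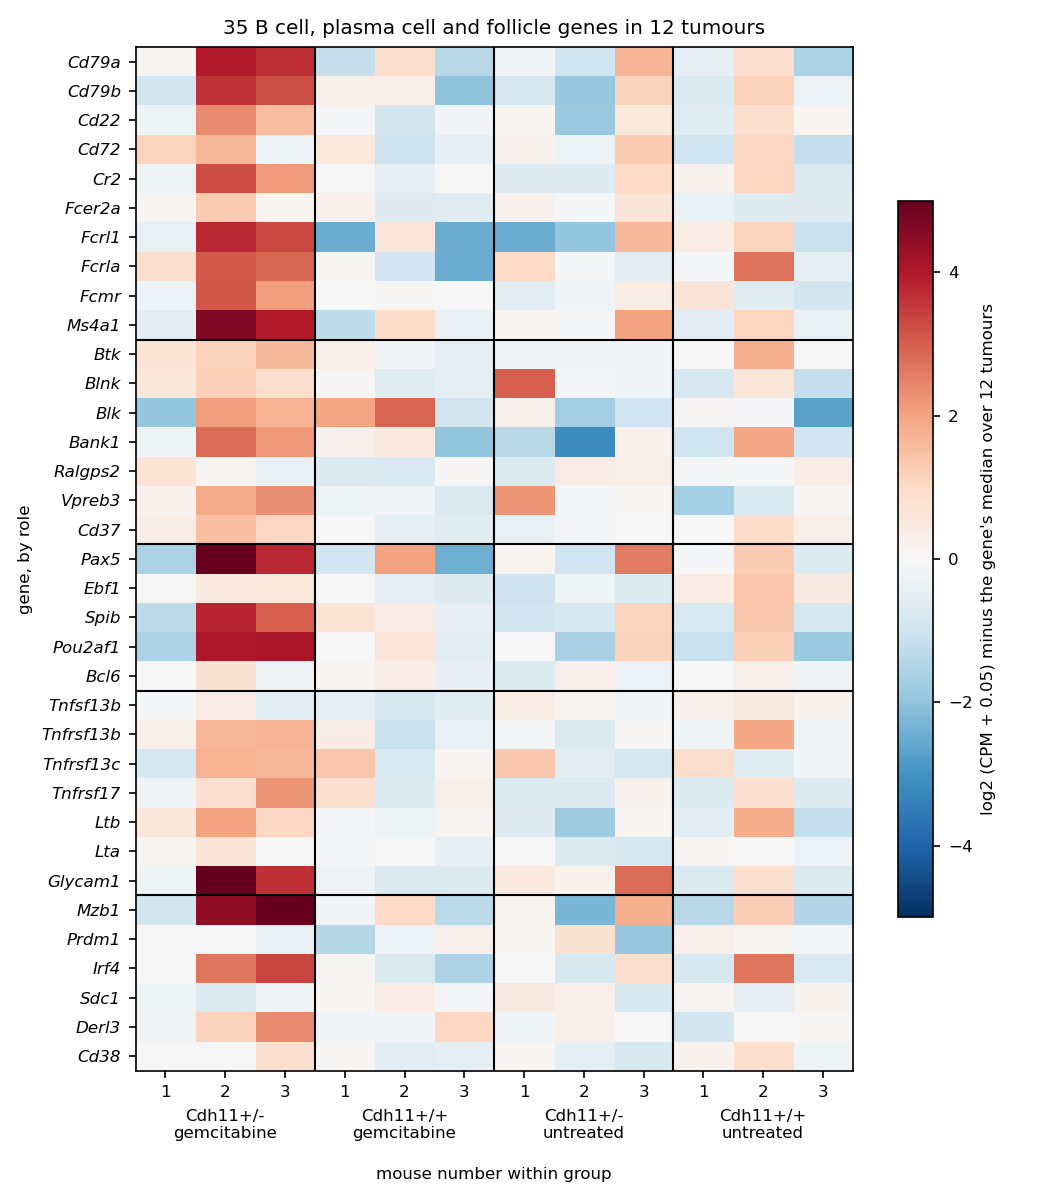
Heat map of the 35 genes (rows, grouped by role: receptor and co-receptors, signalling, transcription, survival and follicle, plasma cell) in 12 tumours (columns), as log2 (CPM + 0.05) minus each gene's median over the 12 tumours, with colours capped at -5 and 5. Treated heterozygotes 2 and 3 are the 2 highest columns in 18 of the 34 tested genes, and Blnk in untreated heterozygote 1 (28.4 CPM) and Blk in treated wild type 2 (6.04 CPM) stand apart from them.

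Between treated heterozygotes and treated wild types, 32 of 34 genes had higher fitted levels in heterozygotes and 2, Blk and Sdc1, had lower ones. The median log2 fold change was 1.52, against -0.03 over all 24065 genes, of which 46.9% were higher. None of the 34 passed edgeR's quasi-likelihood test after Benjamini-Hochberg adjustment (lowest adjusted p = 0.546), in a comparison where 1 gene of all, 0.00416%, passed. At an unadjusted p under 0.05 there were 17 of 34 higher and 0 lower, where 4.66% and 2.89% of all genes were higher and lower. DESeq2 called 5 (Cd79a, Fcrla, Ms4a1, Cd37 and Glycam1), all higher, where it called 0.954% of all genes and 0.73% as higher. All 3 heterozygotes lay above all 3 wild types for 6 genes (7.12% of all genes) and below them for 1 gene, Sdc1 (6.59%). The count of 17 was 9 without treated heterozygote 2, 11 without treated wild type 3 and 22 without treated heterozygote 1. Without treated wild type 2, 33 genes were higher and only Sdc1 was lower, so the direction for Blk rested on that tumour. With Xist as a covariate across all 12 tumours the count was 2 and the median 0.96. Xist followed genotype in the treated tumours, so this fit took its Xist effect mostly from untreated tumours. It cannot say what part Xist had. In that fit the signs for Cd72, Ebf1, Bcl6, Ltb and Sdc1 were reversed. Each p rests on a spread between mice that was estimated over all 4 groups, and not from the treated mice alone.

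**Figure D2:**
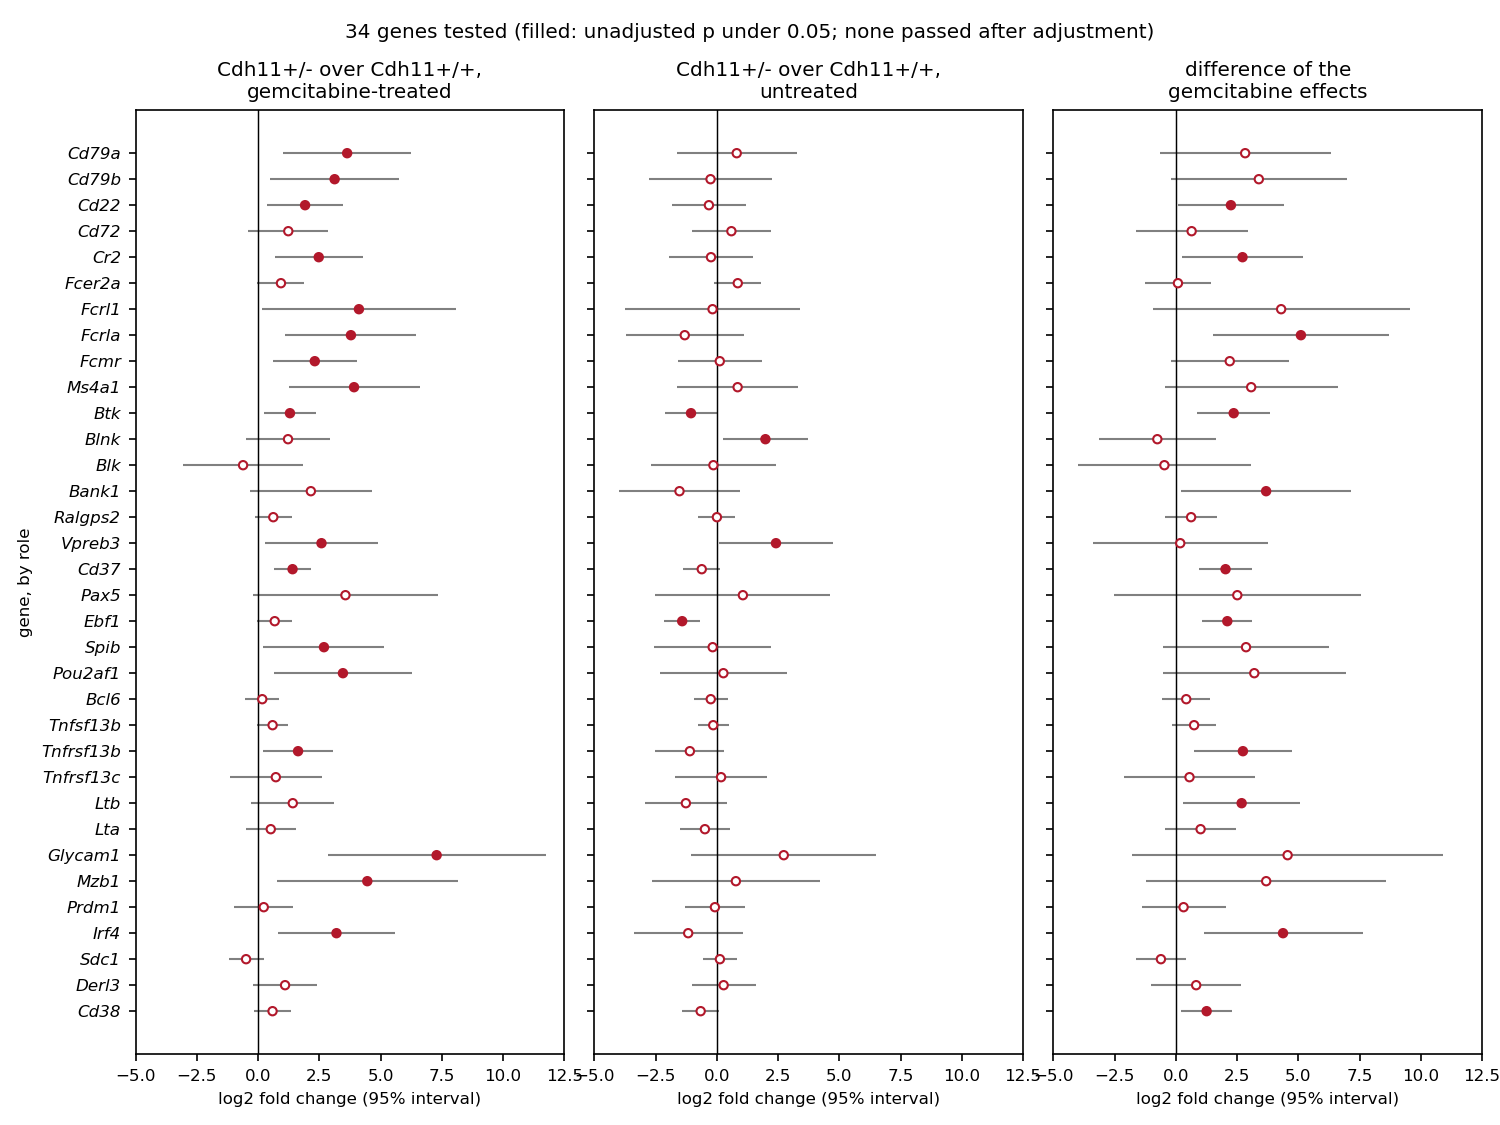
Log2 fold changes with 95% intervals from edgeR for the 34 tested genes (rows, by role) between the genotypes in treated tumours, between the genotypes in untreated tumours, and for the difference of the 2 gemcitabine effects (heterozygote minus wild type). Filled points have an unadjusted p under 0.05 (17 in treated tumours, 4 in untreated tumours and 11 for the difference), and no gene passed after adjustment.

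Among the receptor chains and co-receptors, Cd79a (chromosome 7, 24897381 to 24902197 in GRCm38), which encodes a signalling chain of the B cell receptor, had 0.444, 6.83 and 5.76 CPM in treated heterozygotes, 0.153, 0.767 and 0.120 in treated wild types, 0.351, 0.173 and 1.39 in untreated heterozygotes and 0.265, 0.738 and 0.0986 in untreated wild types. Treated heterozygotes 2 and 3 lay above every other tumour, and treated heterozygote 1 lay within the range of the treated wild types. The mean was 4.34 ± 3.42 CPM in treated heterozygotes and 0.347 ± 0.364 CPM in treated wild types (SD, n = 3 each), and the log2 fold change was 3.64 ± 1.19 (SE; edgeR adjusted p = 0.546). Ms4a1, the gene for CD20, had 0.182, 8.13 and 5.16 CPM in treated heterozygotes, 0.0874, 0.581 and 0.216 in treated wild types, 0.307, 0.259 and 1.29 in untreated heterozygotes and 0.176, 0.646 and 0.217 in untreated wild types. The same 2 tumours stood above the rest, and mouse 1 was below 2 of the 3 treated wild types; the log2 fold change was 3.92 ± 1.22 (edgeR adjusted p = 0.546). Cd79b, the partner chain, followed with 0.262, 7.17 and 5.50 CPM in treated heterozygotes and 0.678, 0.697 and 0.0959 CPM in treated wild types.

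Cr2 (chromosome 1, 195136811 to 195176716), the complement receptor CD21 of B cells and follicular dendritic cells, had 0.989, 11.8 and 5.32 CPM in treated heterozygotes, 1.18, 0.860 and 1.20 in treated wild types, 0.747, 0.734 and 2.44 in untreated heterozygotes and 1.37, 2.58 and 0.710 in untreated wild types. Untreated wild type 2 and untreated heterozygote 3 came next after treated heterozygotes 2 and 3, and mouse 1 of the treated heterozygotes lay among the treated wild types. Cd22, an inhibitory co-receptor that binds sialic acid, had 2.52, 15.6 and 8.77 CPM in treated heterozygotes, 2.80, 1.58 and 2.71 in treated wild types, 3.25, 0.799 and 4.33 in untreated heterozygotes and 1.96, 5.35 and 3.21 in untreated wild types. The order of the 4 highest tumours was the same as for Cr2, with log2 fold changes between treated genotypes of 2.48 ± 0.82 for Cr2 and 1.92 ± 0.71 for Cd22 (edgeR adjusted p = 0.546 and 0.589). Fcrla, an intracellular Fc receptor-like protein of B cells, had 0.464, 2.33 and 1.99 CPM in treated heterozygotes, 0.240, 0.0930 and 0 in treated wild types, 0.505, 0.216 and 0.139 in untreated heterozygotes and 0.221, 1.77 and 0.158 in untreated wild types. Here the treated genotypes did not overlap, and untreated wild type 2 was close to treated heterozygotes 2 and 3, unlike for Cd79a. Its log2 fold change was 3.79 ± 1.22 in treated tumours (edgeR adjusted p = 0.546).

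Cd72, another inhibitory co-receptor, had 3.13, 4.57 and 1.22 CPM in treated heterozygotes, 2.08, 0.674 and 1.03 in treated wild types, 1.65, 1.17 and 3.63 in untreated heterozygotes and 0.684, 3.00 and 0.611 in untreated wild types. Treated heterozygote 3 was not high for it, the groups overlapped and the log2 fold change was 1.23 ± 0.74 (edgeR adjusted p = 0.796). Cd72 shares 1423 exonic bases with Tesk1 on the opposite strand, which had 15685 counts over the 12 libraries against 1083 for Cd72, so its level is uncertain where the counting did not use strand. Fcer2a, the IgE receptor CD23, ranged least of the 10, with 1.27, 3.00 and 1.30 CPM in treated heterozygotes and 1.40, 0.744 and 0.767 CPM in treated wild types. Fcrl1, an Fc receptor-like protein, had 0.162, 3.73 and 2.69 CPM in treated heterozygotes and 0, 0.372 and 0 CPM in treated wild types. Fcmr, the Fc receptor for IgM, had 0.242, 3.03 and 1.47 CPM in treated heterozygotes and 0.306, 0.325 and 0.312 CPM in treated wild types. All 10 had a higher fitted level in treated heterozygotes, with a median log2 fold change of 2.80 (46.9% of all genes were higher), and 8 had an unadjusted p under 0.05 (4.66% of all genes, as higher).

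**Figure D3:**
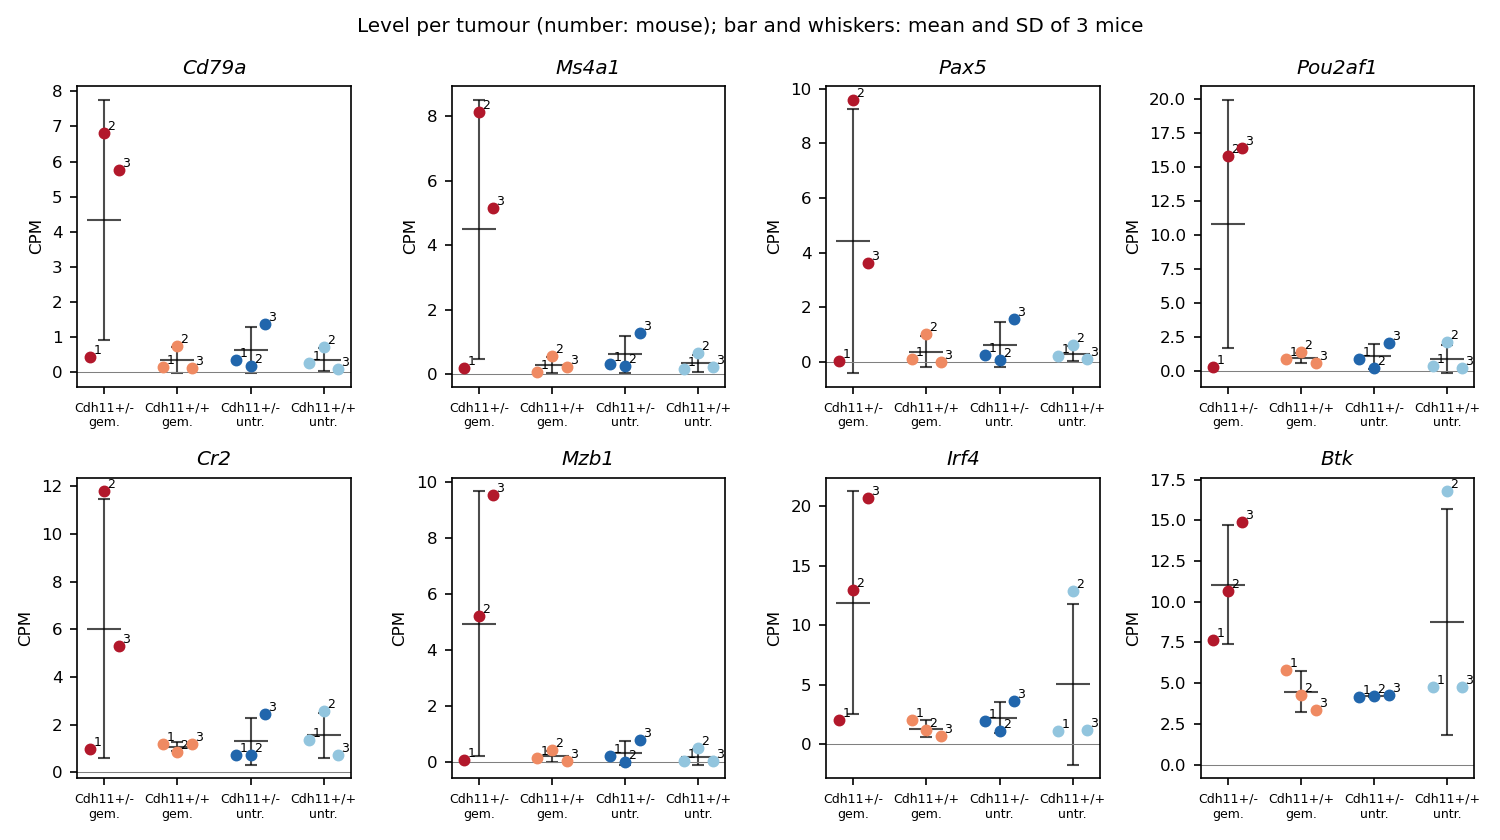
CPM (y axis, linear, with a line at 0) of 8 genes in each of the 12 tumours, by group, with the mouse number beside each point and the mean and SD of 3 mice as a bar and whiskers. For Cd79a, Ms4a1, Pax5, Pou2af1, Cr2 and Mzb1 treated heterozygotes 2 and 3 are the highest tumours and mouse 1 sits with the wild types, while Irf4 and Btk are also high in untreated wild type 2 (12.9 and 16.8 CPM).

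Among the signalling genes, Btk (chromosome X, 134542336 to 134583570), the Tec-family kinase behind the receptor that macrophages also use, had 7.63, 10.6 and 14.9 CPM in treated heterozygotes, 5.84, 4.25 and 3.36 in treated wild types, 4.17, 4.19 and 4.27 in untreated heterozygotes and 4.79, 16.8 and 4.77 in untreated wild types. All treated heterozygotes lay above all treated wild types, yet the highest tumour of the 12 was untreated wild type 2. The log2 fold change was 1.30 ± 0.48 in treated tumours (edgeR adjusted p = 0.589). Cd37, a tetraspanin of leukocytes, had 6.50, 14.2 and 10.4 CPM in treated heterozygotes, 4.92, 3.56 and 3.26 in treated wild types, 3.91, 4.71 and 4.96 in untreated heterozygotes and 5.05, 9.57 and 6.27 in untreated wild types. Its treated genotypes did not overlap either, with means of 10.4 ± 3.88 CPM in heterozygotes and 3.91 ± 0.885 CPM in wild types (SD, n = 3 each), and its unadjusted p of 0.00197 was the smallest of the 34 genes (log2 fold change 1.41 ± 0.35, edgeR adjusted p = 0.546). Macrophage markers were high in several of the same tumours. The sum of 10 of them was 1351, 1291 and 1857 CPM in treated heterozygotes, 1153, 628 and 655 in treated wild types, 909, 674 and 648 in untreated heterozygotes and 816, 2412 and 1101 in untreated wild types, and their part in the Btk and Cd37 values was not tested.

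Ralgps2, an activator of Ral GTPases, had 149.7, 101 and 73.9 CPM in treated heterozygotes, 58.4, 55.4 and 97.0 in treated wild types, 58.6, 123 and 118 in untreated heterozygotes and 87.3, 90.8 and 122 in untreated wild types. Its highest tumour was treated heterozygote 1, the one low in receptor genes, and the groups overlapped. Vpreb3, which associates with immunoglobulin chains in developing B cells, was low in all tumours, with 0.141, 0.536 and 0.742 CPM in treated heterozygotes, 0.0874, 0.0930 and 0.0479 in treated wild types, 0.703, 0.108 and 0.119 in untreated heterozygotes and 0, 0.0461 and 0.118 in untreated wild types. Treated heterozygotes lay above treated wild types, and untreated heterozygote 1 was as high as the treated heterozygotes 2 and 3; the log2 fold change was 2.59 ± 1.04 in treated tumours (edgeR adjusted p = 0.611).

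The other signalling genes broke the pattern in single tumours. Blnk, the adaptor that links Syk to Btk, had 28.4, 3.39 and 3.28 CPM in untreated heterozygotes and 1.96, 5.37 and 1.56 CPM in untreated wild types, so that 1 tumour carried the highest value. That tumour had 0.351 CPM of Cd79a. Blnk also lay higher in treated heterozygotes, at 5.35, 8.27 and 6.54 CPM, than in treated wild types, at 3.74, 2.32 and 2.56 CPM. Blk, a Src-family kinase of B cells, had 0.162, 3.42 and 2.67 CPM in treated heterozygotes and 3.13, 6.04 and 0.384 CPM in treated wild types. Its highest tumour, treated wild type 2, had 0.767 CPM of Cd79a. Bank1, a scaffold protein of receptor signalling, kept to the receptor pattern, with 1.64, 13.6 and 8.87 CPM in treated heterozygotes, 2.23, 2.72 and 0.456 CPM in treated wild types and 7.36 CPM in untreated wild type 2. Of the 7 signalling genes 6 had higher fitted levels in treated heterozygotes, with a median log2 fold change of 1.30 (46.9% of all genes were higher).

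Among the transcription factors, Pax5 (chromosome 4, 44524757 to 44710487), which holds B cell identity, had 0.0404, 9.60 and 3.61 CPM in treated heterozygotes, 0.0874, 1.02 and 0 in treated wild types, 0.242, 0.0864 and 1.57 in untreated heterozygotes and 0.199, 0.600 and 0.118 in untreated wild types. Treated heterozygote 2 was 43.6 times the median of the 12 tumours, and treated heterozygote 1 ranked 11 of 12. The log2 fold change between treated genotypes was 3.57 ± 1.71, with a 95% interval of -0.20 to 7.33 that includes 0 (edgeR adjusted p = 0.693). Pou2af1, the octamer co-activator OCA-B, had 0.283, 15.8 and 16.4 CPM in treated heterozygotes, 0.918, 1.39 and 0.623 in treated wild types, 0.900, 0.259 and 2.10 in untreated heterozygotes and 0.397, 2.12 and 0.217 in untreated wild types. Treated heterozygotes 2 and 3 had nearly equal levels, far above the other tumours, and the log2 fold change was 3.46 ± 1.27 (edgeR adjusted p = 0.589). Spib, an Ets factor of B cells and plasmacytoid dendritic cells, had 0.182, 7.85 and 4.51 CPM in treated heterozygotes, 0.853, 0.697 and 0.384 in treated wild types, 0.242, 0.281 and 1.19 in untreated heterozygotes and 0.287, 1.41 and 0.256 in untreated wild types. Treated heterozygote 1 was the lowest of all 12. Summed plasmacytoid dendritic markers were 201, 178 and 176 CPM in treated heterozygotes and 186, 158 and 191 CPM in treated wild types. The 6 tested markers ran both ways between treated genotypes, 3 higher and 3 lower, with log2 fold changes from -4.86 to 3.57. Their part in the Spib values was not tested.

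Ebf1 and Bcl6 were of another kind: both were present in every tumour at 9.73 CPM or more. Ebf1, the early B cell factor that is also expressed in stromal and fat cells, had 19.7, 28.2 and 28.3 CPM in treated heterozygotes, 20.0, 14.7 and 12.8 in treated wild types, 9.73, 17.2 and 12.3 in untreated heterozygotes and 25.4, 52.6 and 27.2 in untreated wild types. The sum of 6 endothelial markers was 218, 302 and 269 CPM in treated heterozygotes, 260.3, 203 and 193 in treated wild types, 209.7, 201 and 152 in untreated heterozygotes and 309.7, 478 and 309 in untreated wild types, none of them at 0 in all tumours, and their part in the Ebf1 values was not tested. In untreated tumours all heterozygotes lay below all wild types, while in treated tumours mice 2 and 3 of the heterozygotes lay above every wild type and mouse 1 overlapped them. Bcl6, a repressor needed in germinal centre B cells and expressed in many tissues, had 27.9, 47.9 and 25.1 CPM in treated heterozygotes, 31.1, 37.1 and 21.5 in treated wild types, 17.7, 33.4 and 22.9 in untreated heterozygotes and 28.8, 34.3 and 25.1 in untreated wild types. Its groups overlapped in treated and untreated tumours, and the log2 fold change between treated genotypes was 0.17 ± 0.32 (edgeR adjusted p = 0.966). All 5 factors had higher fitted levels in treated heterozygotes, with a median log2 fold change of 2.69 (46.9% of all genes were higher).

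Among survival ligands, their receptors and follicle genes, Tnfsf13b, which encodes the survival factor BAFF, had 4.72, 6.75 and 3.55 CPM in treated heterozygotes, 3.69, 2.88 and 3.38 in treated wild types, 6.70, 5.55 and 4.61 in untreated heterozygotes and 5.91, 7.10 and 5.72 in untreated wild types. Treated wild types had the lowest mean of the 4 groups; they overlapped the treated heterozygotes only through mouse 3 of the heterozygotes. Tnfrsf13b, the BAFF and APRIL receptor TACI, had 3.45, 9.39 and 9.59 CPM in treated heterozygotes, 3.72, 1.30 and 2.21 in treated wild types, 2.77, 1.73 and 3.04 in untreated heterozygotes and 2.49, 11.1 and 2.60 in untreated wild types. Treated heterozygotes 2 and 3 and untreated wild type 2 were high, and the log2 fold change between treated genotypes was 1.63 ± 0.65 (edgeR adjusted p = 0.607). Tnfrsf13c, the BAFF receptor of resting B cells, had 0.343, 2.35 and 2.13 CPM in treated heterozygotes and 1.79, 0.372 and 0.743 CPM in treated wild types, with overlapping groups. Tnfrsf17, the plasma cell receptor BCMA, was under the count filter, with 16 counts in treated heterozygote 3 as its largest value.

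Ltb (chromosome 17, 35194439 to 35196320), the lymphotoxin beta subunit that drives follicle formation, had 2.93, 8.20 and 4.15 CPM in treated heterozygotes, 1.86, 1.65 and 2.21 in treated wild types, 1.23, 0.540 and 2.10 in untreated heterozygotes and 1.32, 7.22 and 0.828 in untreated wild types. All treated heterozygotes lay above all treated wild types, and untreated wild type 2 was the second highest tumour; the log2 fold change was 1.42 ± 0.77 (edgeR adjusted p = 0.752). Lta, the lymphotoxin alpha subunit, stayed between 0.159 and 0.536 CPM in all tumours. Glycam1, a mucin-like glycoprotein of high endothelial venules, had 0.0202, 3.84 and 0.983 CPM in treated heterozygotes, 0.0219, 0 and 0 in treated wild types, 0.0659, 0.0432 and 0.516 in untreated heterozygotes and 0, 0.0922 and 0 in untreated wild types. The 3 treated wild types held 1 count in all and the 3 treated heterozygotes 215, a ratio of their CPM of 197 with a 95% counting interval of 35 to 7822 that covers counting error only. Of the 215 counts, 165 were in mouse 2 and 49 in mouse 3, and untreated heterozygote 3 had 0.516 CPM. The 6 tested genes of this set all had higher fitted levels in treated heterozygotes, with a median log2 fold change of 1.07 (46.9% of all genes were higher).

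Among the plasma cell genes, Mzb1, an endoplasmic reticulum protein that helps immunoglobulin fold, had 0.0807, 5.22 and 9.51 CPM in treated heterozygotes, 0.175, 0.442 and 0.0479 in treated wild types, 0.220, 0 and 0.814 in untreated heterozygotes and 0.0441, 0.530 and 0.0394 in untreated wild types. Treated heterozygote 3 was the highest and mouse 2 came next, in the reverse of their order for Ms4a1. The log2 fold change was 4.46 ± 1.68 (edgeR adjusted p = 0.589). Mzb1 shares 695 exonic bases on the same strand with SPATA24, which was not among the genes counted, so reads of those bases cannot be assigned with certainty. Irf4 (chromosome 13, 30749226 to 30766976), a factor of activated B cells and plasma cells, had 2.02, 12.9 and 20.7 CPM in treated heterozygotes, 2.06, 1.16 and 0.647 in treated wild types, 1.93, 1.12 and 3.63 in untreated heterozygotes and 1.12, 12.9 and 1.14 in untreated wild types. Untreated wild type 2 equalled treated heterozygote 2, although its Mzb1 level was 0.53 CPM; the log2 fold change between treated genotypes was 3.20 ± 1.09 (edgeR adjusted p = 0.550). Derl3, a protein of endoplasmic reticulum degradation, had 1.57, 4.05 and 9.37 CPM in treated heterozygotes, 1.64, 1.60 and 3.74 in treated wild types, 1.54, 2.31 and 1.77 in untreated heterozygotes and 0.926, 1.84 and 1.87 in untreated wild types. Treated heterozygote 3 was high, and treated wild type 3 was close to treated heterozygote 2.

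Sdc1, Cd38 and Prdm1 did not have treated heterozygotes 2 and 3 as their 2 highest tumours. Sdc1, syndecan-1, is a plasma cell marker that epithelial cells also carry, and had 439, 314 and 475 CPM in treated heterozygotes, 539.5, 690.3 and 494 in treated wild types, 704, 645 and 298 in untreated heterozygotes and 562, 363 and 589.7 in untreated wild types. It was the only gene of the 35 with all treated heterozygotes below all treated wild types, at a log2 fold change of -0.49 ± 0.32 (edgeR adjusted p = 0.827). Per length it was the most abundant of the 35, with a mean of 231 TPM over the 12 tumours, against 24.4 TPM for Cd38 and 1.77 TPM for Cd79a. Summed duct epithelium markers were 4762, 3851 and 3511 CPM in treated heterozygotes and 4395, 5595 and 9066 CPM in treated wild types, and their part in the Sdc1 values was not tested. Cd38, an ectoenzyme of plasma cells and other leukocytes, had 51.3, 52.3 and 89.3 CPM in treated heterozygotes, 54.7, 35.6 and 37.8 in treated wild types, 55.0, 37.8 and 29.9 in untreated heterozygotes and 58.2, 92.5 and 43.9 in untreated wild types. Untreated wild type 2 and treated heterozygote 3 were its highest tumours. Prdm1, which encodes Blimp-1, had 14.0, 14.5 and 11.0 CPM in treated heterozygotes, 5.29, 11.6 and 16.8 in treated wild types, 15.4, 24.1 and 3.75 in untreated heterozygotes and 17.2, 15.3 and 13.4 in untreated wild types, with no separation of groups and a log2 fold change between treated genotypes of 0.23 ± 0.55 (edgeR adjusted p = 0.975). Of the 6 plasma cell genes 5 had higher fitted levels in treated heterozygotes, with a median log2 fold change of 0.85 (46.9% of all genes were higher).

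The 2 tumours with most B cell RNA were set against each other. As ratios of mouse 3 to mouse 2 with 95% counting intervals, Ms4a1 was at 0.634 (0.538 to 0.747), Cr2 at 0.451 (0.387 to 0.524) and Pax5 at 0.376 (0.314 to 0.449). Mzb1 was at 1.82 (1.55 to 2.15), Irf4 at 1.60 (1.44 to 1.78) and Derl3 at 2.31 (1.94 to 2.77). The first 3 genes were thus lower and the last 3 higher in mouse 3. Intervals wholly below 1 were found for 30.6% of all tested genes and wholly above 1 for 29.6%, so that most genes differed between these libraries beyond counting error. By role, 9 of the 10 receptor and co-receptor genes had intervals wholly below 1 and none above it, and 5 of the 6 plasma cell genes had intervals wholly above 1, with Prdm1 below it at 0.758 (0.674 to 0.851). Of those 5, Sdc1 (1.51 (1.48 to 1.55)) is also carried by epithelial cells and Cd38 (1.71 (1.62 to 1.79)) by other leukocytes. Glycam1 and Ltb were lower in mouse 3, at 0.256 (0.182 to 0.354) and 0.507 (0.425 to 0.603), and Pou2af1 and Ebf1 did not differ beyond counting error. These ratios compare 1 library with 1 other and cover counting error only, so they say nothing of the spread between mice.

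**Figure D4:**
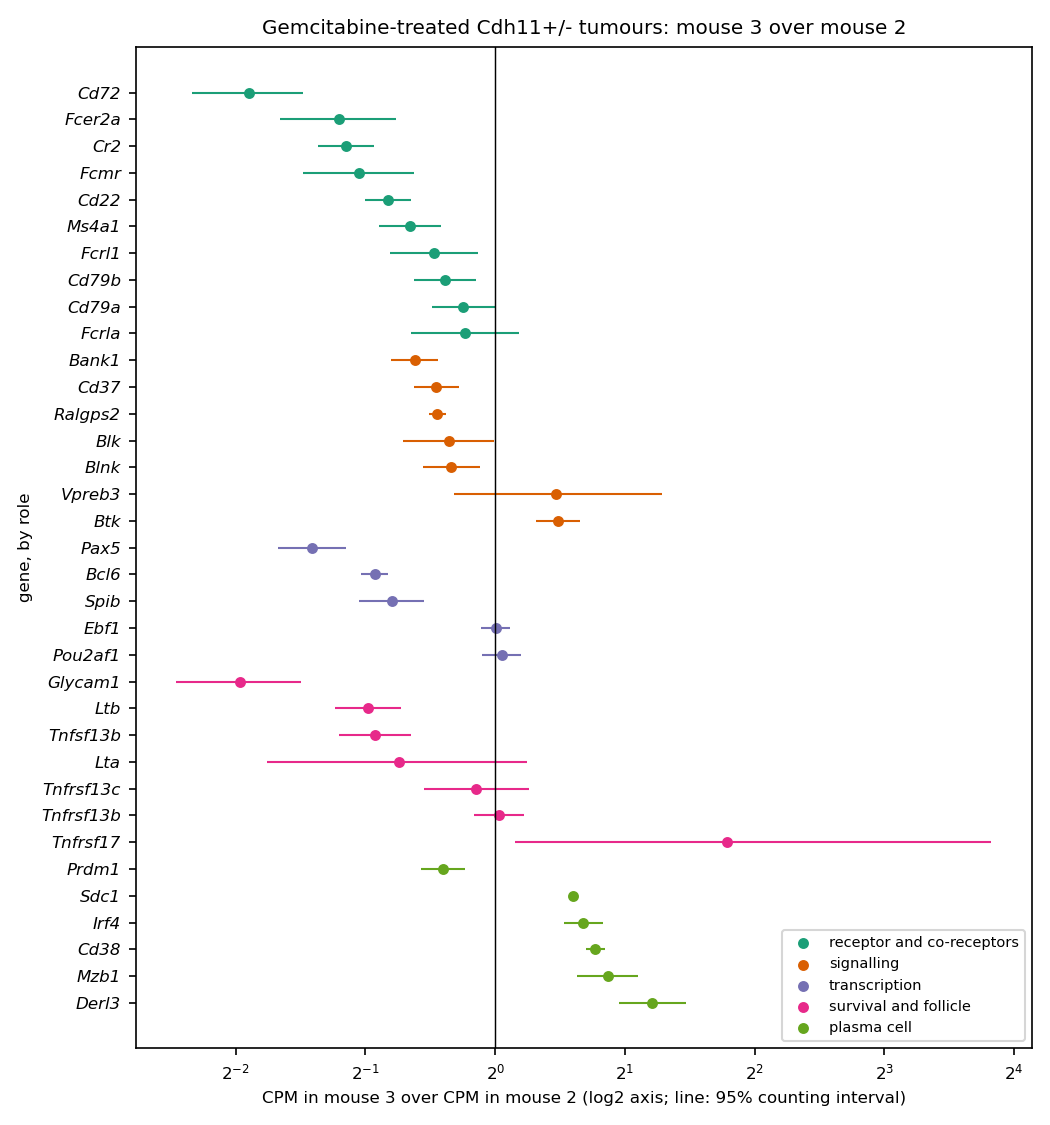
Ratio of CPM in treated heterozygote 3 to CPM in treated heterozygote 2 (x axis, log2 scale) with 95% counting intervals for the 35 genes (rows, coloured by role). Receptor and co-receptor genes lie left of 1, Mzb1, Irf4, Derl3, Cd38 and Sdc1 lie right of it, and the intervals hold counting error of 2 libraries only.

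Between untreated heterozygotes and untreated wild types, 14 of 34 genes were higher and 20 lower, and the median was -0.15 on the log2 scale against 0.04 over all genes. None passed edgeR's test after adjustment (lowest adjusted p = 0.190, 0.0166% of all genes passed). At an unadjusted p under 0.05, Blnk and Vpreb3 were higher (5.51% of all genes were) and Ebf1 and Btk were lower (6.65% were). Ebf1 averaged 13.1 ± 3.82 CPM in untreated heterozygotes and 35.1 ± 15.2 CPM in untreated wild types (SD, n = 3 each), without overlap, at a log2 fold change of -1.42 ± 0.33 (edgeR adjusted p = 0.190), and it was the 1 gene of the 34 that DESeq2 called (2.71% of all genes). For Btk the values were 4.17, 4.19 and 4.27 CPM in untreated heterozygotes and 4.79, 16.8 and 4.77 CPM in untreated wild types, and the log2 fold change was -1.06 ± 0.48 (edgeR adjusted p = 0.408). In these untreated groups, non-overlap was found for 1 gene higher (7.36% of all genes) and 3 genes lower (8.41%). Of the 10 macrophage markers 0 were higher, with 2 lower without overlap, and of the 6 endothelial markers 0 were higher, with 4 lower without overlap; their part in these values was not tested. The direction rested on single tumours: without untreated wild type 2, 21 genes were higher and 13 lower with a median of 0.31, and without untreated heterozygote 2 the split was 19 and 15 with a median of 0.10. Without untreated heterozygote 1 the split was 17 and 17, and neither Blnk nor Vpreb3 had an unadjusted p under 0.05. Without untreated wild type 1 the split was 15 and 19, with 0 higher and 2 lower at an unadjusted p under 0.05. Without untreated wild type 3 the split was 13 and 21, with 1 higher and 4 lower at that p.

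Gemcitabine was compared with no treatment within each genotype, and these comparisons share their samples with those above. Between treated and untreated heterozygotes, 30 of 34 genes were higher and 4 lower, and the median was 1.63 on the log2 scale (-0.03 over all genes). None passed edgeR's test after adjustment (lowest adjusted p = 0.593, 0.00831% of all genes passed), DESeq2 called 0 (0.647% of all genes), and at an unadjusted p under 0.05 there were 18 genes higher and 0 lower (4.42% and 3.48% of all genes). That count depended on single tumours: it was 4 without treated heterozygote 2, 6 without treated heterozygote 3 and 21 without treated heterozygote 1. It was 7 without untreated heterozygote 1, 5 without untreated heterozygote 2 and 5 with Xist as a covariate. Leaving out untreated heterozygote 3 gave 19 higher and 1 lower at that p. Non-overlap was found for 5 genes higher and 0 lower (6.64% and 6.08% of all genes), and Cd37, at 10.4 ± 3.88 CPM in treated and 4.53 ± 0.550 CPM in untreated heterozygotes (SD, n = 3 each), had the smallest unadjusted p, 0.00546 (log2 fold change 1.20 ± 0.35, edgeR adjusted p = 0.593).

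Between treated and untreated wild types, 11 of 34 genes were higher and 23 lower, and the median was -0.34 on the log2 scale (0.01 over all genes). None passed edgeR's test (lowest adjusted p = 0.559, 0.0% of all genes passed) or DESeq2's (0.429% of all genes). At an unadjusted p under 0.05, 0 genes were higher and 4 were lower (4.05% and 4.55% of all genes), namely Ebf1, Tnfsf13b, Cd37 and Fcrla. Tnfsf13b averaged 3.32 ± 0.410 CPM in treated wild types and 6.24 ± 0.749 CPM in untreated wild types (SD, n = 3 each), without overlap, at a log2 fold change of -0.91 ± 0.30 (edgeR adjusted p = 0.559). Without overlap, 0 genes were higher and 3 lower (6.53% and 7.17% of all genes). With Xist as a covariate 17 genes were higher and 17 lower, the median was 0.01 and the count of 4 was 2. Without untreated wild type 2, 21 genes were higher and 13 lower and the median was 0.18; the count of 4 was 2 without it, 2 without each of treated wild types 2 and 3, 7 without untreated wild type 1 and 8 without untreated wild type 3.

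The difference of the 2 gemcitabine effects, heterozygote minus wild type, was positive for 31 of 34 genes, with a median of 2.22 on the log2 scale (-0.07 over all genes). None passed edgeR's test of the interaction (lowest adjusted p = 0.252, 0.00831% of all genes passed), 11 genes were positive and 0 negative at an unadjusted p under 0.05 (7.14% and 5.52% of all genes). DESeq2 called 5, namely Fcrla, Btk, Cd37, Ebf1 and Irf4, all positive (2.93% of all genes called, 2.11% as positive). Ebf1 had the smallest unadjusted p, 0.000856, at 2.10 ± 0.47 (edgeR adjusted p = 0.252). Fcrla was at 5.11 ± 1.63, Irf4 at 4.38 ± 1.48 and Cd37 at 2.03 ± 0.49 (edgeR adjusted p = 0.276, 0.284 and 0.252). The interaction was positive for all 10 macrophage markers, 9 of them at an unadjusted p under 0.05, and for all 6 endothelial markers, 5 of them at that p, and their part in the values above was not tested. The 11 became 18 without treated heterozygote 1, 15 with 1 negative without untreated heterozygote 3, 5 without untreated wild type 2, 7 without each of treated heterozygote 2, treated wild types 1 and 3 and untreated heterozygotes 1 and 2, and 2 with Xist as a covariate.

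Further genes of these pathways were taken from 6 lists of 91 tested genes. Between treated heterozygotes and treated wild types 72 were higher and 19 lower, the median was 0.63 on the log2 scale, none passed edgeR's test, 33 were higher at an unadjusted p under 0.05 (4.66% of all genes), and DESeq2 called 4, all higher (0.73% of all genes). Over all genes 46.9% were higher, the share against which the counts by list stand. Of 24 receptor signalling genes 22 were higher and 12 of these had an unadjusted p under 0.05, of 12 transcription genes 10 and 6, of 14 germinal centre genes 13 and 7, of 14 genes of the noncanonical NF-kB pathway 8 and 2, of 11 follicle and high endothelium genes 7 and 3, and of 16 secretory genes 12 and 3. Syk, the kinase next to the receptor, had 68.2, 88.6 and 113 CPM in treated heterozygotes and 45.1, 47.5 and 43.4 CPM in treated wild types. The groups did not overlap, and the log2 fold change was 0.99 ± 0.23 (edgeR adjusted p = 0.546). Inpp5d, the phosphatase SHIP1 that limits receptor signals, was at 1.14 ± 0.29, and Lyn, a Src-family kinase, at 0.85 ± 0.29 (edgeR adjusted p = 0.546 and 0.553). Both kinases and the phosphatase are also used by myeloid cells.

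Among the transcription genes, Ikzf3 (Aiolos) had 0.787, 14.4 and 9.27 CPM in treated heterozygotes and 1.14, 0.674 and 0 CPM in treated wild types, with heterozygotes 2 and 3 again the high ones. Ikzf1 and Mef2c, lymphoid and myeloid factors, were at log2 fold changes of 1.87 ± 0.54 and 1.49 ± 0.41 (edgeR adjusted p = 0.546 and 0.546). Icos, a co-stimulator of follicular helper T cells, had 0.323, 1.21 and 1.85 CPM in treated heterozygotes and 0.0437, 0 and 0.120 CPM in treated wild types, without overlap. Il21r, the receptor of a T cell cytokine that acts on B cells, was at 2.35 ± 0.76 and the co-stimulatory ligand Cd86 at 1.62 ± 0.42 (edgeR adjusted p = 0.546 and 0.546).

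Selp and Bst1, a selectin of platelets and endothelium and a stromal antigen, were at 1.48 ± 0.47 and 1.94 ± 0.69 on the log2 scale between treated genotypes (edgeR adjusted p = 0.546 and 0.572). In the secretory list, Xbp1, the factor that expands the secretory pathway of plasma cells, had 185, 182 and 217 CPM in treated heterozygotes and 131, 116 and 90.7 CPM in treated wild types, without overlap. Slamf7, a receptor of plasma and cytotoxic cells, was at 3.12 ± 1.10 and Tent5c, a poly(A) polymerase of plasma cells, at 1.44 ± 0.48 (edgeR adjusted p = 0.572 and 0.546). In the NF-kB list, the ligands Tnfsf14 (LIGHT), Tnfsf13 (APRIL) and Tnfsf11 (RANKL) were at 1.13 ± 0.45, 1.17 ± 0.51 and 1.06 ± 0.60 (edgeR adjusted p = 0.603, 0.648 and 0.774).

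T cell markers stood high in the same tumours as the B cell genes. Their sum over 15 genes was 7.12, 52.9 and 51.3 CPM in treated heterozygotes, 6.36, 7.37 and 6.71 in treated wild types, 9.25, 7.60 and 29.4 in untreated heterozygotes and 6.37, 20.1 and 6.15 in untreated wild types, and treated heterozygotes 2 and 3 were the 2 highest tumours for 13 of the 15. Treated heterozygote 1 had neither, with 7.12 CPM of T cell and 9.67 CPM of B cell receptor markers, but its macrophage sum of 1351 CPM was as high as that of mouse 2. No T cell marker was at 0 in all tumours, and the part of T cells in the values above was not tested. Acinar markers were 7.31, 8.55 and 3.79 CPM in treated heterozygotes and 146.5, 5.30 and 32.3 CPM in treated wild types.

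**Figure D5:**
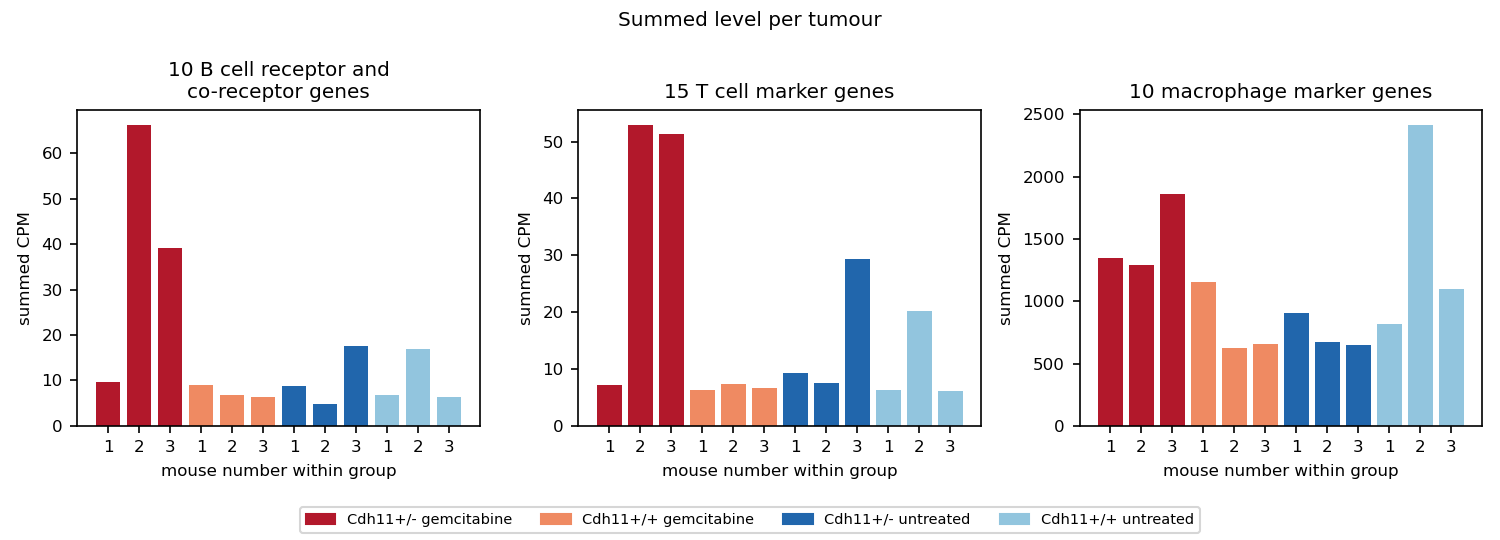
Summed CPM (y axis, from 0) of 10 B cell receptor and co-receptor genes, 15 T cell markers and 10 macrophage markers in each of the 12 tumours, coloured by group. Treated heterozygotes 2 and 3 are the highest bars for B cell (66.1 and 39.2 CPM) and T cell genes (52.9 and 51.3 CPM), and untreated wild type 2 is the highest for macrophage genes (2412 CPM).

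The genes whose levels were most like Cd79a over the 12 tumours, by Spearman's rho of log2 CPM, were BC065397 (0.965), Mbnl1 (0.958), Igkv1-110 (0.944), Gimap3, Igha and Ly6c2 (0.937 each), Gm37589 and Igkc (0.930 each), and Pnisr and Zfp770 (0.923 each). Of these 10, 3 are immunoglobulin genes, and none is among the 35. Of the 35, Mzb1 was closest to Cd79a, at 0.874, in place 56. The rank order rests on libraries at low counts for Cd79a in most tumours, and it is given as a description of these 12 libraries.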

How the data were processed

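RNA came from snap-frozen tumours and was made into stranded total RNA libraries with ribosomal RNA depletion and random priming, per the labels' protocols. The authors deposited expected counts per gene for each of the 12 libraries, made with RSEM on GRCm38 per the submitters' processing notes; the RSEM version, aligner, annotation release and strand setting were not stated there. Expected counts were rounded to whole numbers. Gene IDs were named from GENCODE M21 (52489 of 52636 matched). Tests used edgeR 4.0.16 (filter by expression over all 12 libraries, TMM factors between 0.897 and 1.09, 1 quasi-likelihood fit of 4 groups, Benjamini-Hochberg adjustment over 24065 genes, threshold 0.05, R 4.3.3), with DESeq2 1.42.0 as an alternative. CPM use TMM-scaled totals, TPM use exon length. Mice of a group were taken as replicates. The edgeR fit was also run on simulated counts, with known changes set alike in all treated heterozygotes and only in genes at higher counts. That check does not cover genes at low counts or genes high in only some mice of a group. Same-numbered mice did not deviate together (correlations between -0.274 and 0.174), so mouse number was not used as a pairing. Genes named are those of each role with the highest mean or smallest p in the treated genotype comparison; genes and lists were chosen with earlier results of these data known. Alternatives were other scaling, no filter, only the groups compared, a mouse number block, Xist as covariate and leaving out each library. Counting intervals and floors cover counting error only.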

Additional observations from a re-analysis of the deposited data

Results flagged for a closer look

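For Btk, Cd37 and Ebf1, effects under the same contrast ran in opposite directions with no overlap between the groups. They were picked by this pattern, and its share over all genes was not counted. Over all genes, heterozygotes lay above wild types without overlap for 7.12% in treated tumours and below them for 8.41% in untreated tumours. Gemcitabine-treated tumours lay above untreated ones without overlap for 6.64% of all genes in heterozygotes, and below them for 7.17% in wild types. For Btk and Cd37 all heterozygotes lay above all wild types in treated tumours and below them in untreated tumours. For Btk the values were 7.63, 10.6 and 14.9 CPM in treated heterozygotes, 5.84, 4.25 and 3.36 CPM in treated wild types, 4.17, 4.19 and 4.27 CPM in untreated heterozygotes and 4.79, 16.8 and 4.77 CPM in untreated wild types, and the interaction was 2.36 on the log2 scale. For Cd37 they were 6.50, 14.2 and 10.4 CPM in treated heterozygotes, 4.92, 3.56 and 3.26 CPM in treated wild types, 3.91, 4.71 and 4.96 CPM in untreated heterozygotes and 5.05, 9.57 and 6.27 CPM in untreated wild types, and the interaction was 2.03. For Ebf1 all treated tumours lay above all untreated ones in heterozygotes (19.7, 28.2 and 28.3 CPM treated against 9.73, 17.2 and 12.3 CPM untreated) and below them in wild types (20.0, 14.7 and 12.8 CPM treated against 25.4, 52.6 and 27.2 CPM untreated), and the interaction was 2.10. These interactions passed DESeq2's test (adjusted p = 0.0334 for Btk, 0.0108 for Cd37 and 0.0072 for Ebf1) and did not pass edgeR's (adjusted p = 0.252 for Btk, Cd37 and Ebf1 alike). Macrophage and endothelial markers ran the same way: the interaction was positive for 10 of 10 macrophage markers (9 at an unadjusted p under 0.05, 1 by DESeq2) and for 6 of 6 endothelial markers (5 at that p, 2 by DESeq2), against 7.14% of all genes at that p and 2.11% by DESeq2, and their part was not tested. Untreated wild type 2 was the highest untreated tumour for each of the 3 genes. Without it the interactions were 1.48 for Btk, 1.73 for Cd37 and 1.68 for Ebf1 (edgeR adjusted p = 0.481 each, within 0.166 to 0.721 for the 3 genes over the edgeR alternatives).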

How the results depend on the processing

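No gene of the 34 passed edgeR's test in any comparison where it was fitted (0 in each). This held under another scaling, no filter, a mouse number block, Xist as a covariate or any library left out. It also held with only the groups compared, where 32 genes were fitted between treated genotypes and 32 between untreated genotypes. In that setting 34 were fitted in heterozygotes and 28 in wild types, since the filter then saw only those groups. The interaction could not be fitted that way, since it uses all 4 groups. DESeq2 called 5 of them between treated genotypes, 1 between untreated genotypes, 0 for gemcitabine in either genotype and 5 for the interaction. Over all genes, edgeR's 1 call between treated genotypes became 0 with the mouse number block, 0 with Xist, 12 with only the groups compared and 230 with DESeq2. The 4 calls between untreated genotypes became 10 with no filter, 2 with only the groups compared and 674 with DESeq2, and DESeq2 called 166 genes in heterozygotes, 97 in wild types and 618 for the interaction. Leaving out 1 library gave 0 to 4 calls between treated genotypes, 2 to 12 between untreated genotypes, 2 to 9 in heterozygotes, 0 to 1 in wild types and 2 to 7 for the interaction, and the median of the 34 genes ran between 1.30 and 1.94, -0.48 and 0.31, 1.33 and 2.02, -0.53 and 0.18, and 1.48 and 2.63. With the mouse number block, the median between treated genotypes was 1.42 and the genes with an unadjusted p under 0.05 were 10, with 6 in heterozygotes, 2 in wild types and 6 for the interaction, and no call of the 34 genes changed. Between treated genotypes, Xist as a covariate reversed the sign for Cd72 (-0.17), Ebf1 (-0.12), Bcl6 (-0.35), Ltb (-0.061) and Sdc1 (0.11); leaving out treated heterozygote 2 or treated wild type 3 reversed Bcl6 (-0.16 and -0.02, within -0.16 to 0.36 over all libraries), and leaving out treated wild type 1 reversed Prdm1 (-0.10, within -0.10 to 0.65). Signs were followed gene by gene here for 25 of the 34 genes. Without treated wild type 2, 33 of the 34 were higher and Sdc1 stayed lower, so Blk, which is not among the 25, was reversed. The causes were not tested. Low counts limit Glycam1, Tnfrsf17, Fcrl1, Mzb1 and Vpreb3 most, each at 3 counts or fewer in 3 or more libraries.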
